A study of Mus musculus with 8 samples.

Results

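Cfc1 and 9 other genes of Nodal signalling (Tdgf1, Nodal, Lefty1, Lefty2, Foxh1, Acvr1b, Acvr2a, Acvr2b and Smad2) were examined in the livers of newborn mice with and without the miR-379/miR-410 microRNA cluster. Members were all non-control probes annotated to these 10 genes on the array, 14 probes of 55681. The list was drawn up around Cfc1 because its signal was lower in the knockout arrays, so its difference between the groups is given as a description with no test. The differences of the other 9 come from the same contrast and are also given as a description. Limma calls named for them come from the fit over all genes and are not a test of the list. All 10 genes had at least 1 probe that passed the filter on dim signals, and 12 of the 14 probes passed it.

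The study compared 4 mice with a deletion of the cluster inherited from the mother (knockout) with 4 wild-type littermates, all C57BL/6J. The pups were delivered by caesarean at E19.5 (E, embryonic day) and killed 4 h later. Fragments of the large liver lobe gave total RNA, of which 200 ng per animal was labelled with Cy3 and hybridised to 1 single-colour Agilent array. The deletion came through the germ line of the mother and is not confined to liver, and no source used here gives its exact limits.

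Nodal is a secreted ligand of the TGF-beta family that patterns the early embryo and its left-right axis. It signals through type II (Acvr2a, Acvr2b) and type I (Acvr1b) activin receptors, and needs an EGF-CFC protein on the cell surface, Cfc1 (Cryptic) or Tdgf1 (Cripto), as a co-receptor. The receptors phosphorylate Smad2, which acts in the nucleus with partners such as Foxh1, and the Lefty proteins are secreted antagonists that the pathway itself induces.

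The deletion was named after the first and last microRNAs of the cluster, and one mature sequence from each end is shown to identify what the knockout lacks. In RefSeq (GRCm38.p6) the span from Mir379 to Mir410 is chr12:109709060-109743795, with 36 hairpins listed in it. Capitals mark the seed, bases 2 to 8, and the pair do not share it.
mmu-miR-379-5p: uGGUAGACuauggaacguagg
mmu-miR-410-3p: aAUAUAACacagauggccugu

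Cfc1 was read by 1 probe of 60 bases at chr1:34601097-34601156 (mm9, forward strand), and its last 30 bases, chr1:34601127-34601156, are shown because the whole Cfc1 result rests on this probe. Capitals mark an AATAAA, the usual polyadenylation signal, which the last 30 bases of 8.16% of all probes also hold on the printed strand and 9.97% on either strand. Tdgf1 was read by 3 probes that disagreed in brightness, and bases 16 to 45 of the bright probe, chr9:110842737-110842766 (mm9, reverse strand), are shown because they carry an AG repeat. Capitals there mark 11 bases that lie within 15-base runs shared, on either strand, with 11 other probes.
Cfc1 probe, last 30 bases: tcatgctgtacAATAAAgaggcttaatggt
Tdgf1 probe, bases 16 to 45: gtctcggggagaaaaaAGAGAGAGAGAgaa

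Runs of 15 bases set the bright Tdgf1 probe apart from the other 13. It shared such a run with probes of 15 other genes or transcripts, whereas the other 13 shared one with 0 to 3, and Cfc1 with 0. Over all 55681 probes the median was 0, and 1.175% shared a run with at least 15. Of 32851 promoter sequences of 300 bases, 77 held a run of the bright Tdgf1 probe and 0 held one of the Cfc1 probe. Whether these shared runs add to the Tdgf1 signal was not tested.

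Signals are given first as the scanner software's processed signal, a background-subtracted spot intensity, and then as a level, the log2 of that signal relative to the 75th percentile of the same array. Differences are knockout minus wild-type on this log2 scale with the standard error (SE) from limma, and values in brackets after ± are SD over 4 arrays. A spot is called well above background by the scanner software's own test. The 75th percentiles lay between 506 and 642, between 58.6% and 66.2% of spots were well above background, and no spot was saturated. Levels of different probes are not set against each other, since probes differ in binding.

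**Figure D1:**
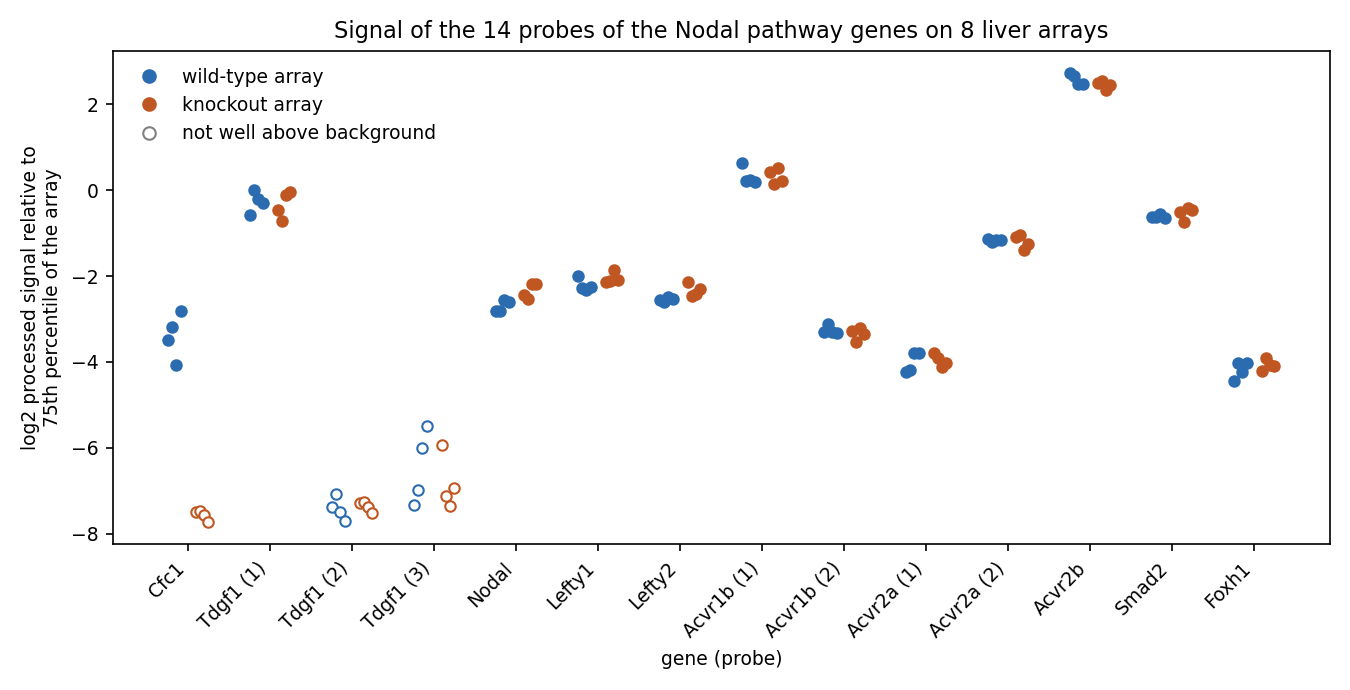
Log2 processed signal relative to the array's 75th percentile (y axis) for the 14 probes of the 10 genes (x axis), 1 point per array, with open points where the spot was not well above background. Cfc1 is filled on the 4 wild-type arrays and open on the 4 knockout arrays, and the probes Tdgf1 (2) and Tdgf1 (3) are open on all 8. Heights may be compared within a probe, not between probes.

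Cfc1, the co-receptor at the centre of the list, was well above background on 4 of 4 wild-type arrays and on 0 of 4 knockout arrays. Its processed signal was 57.1, 55.4, 31.8 and 76.3 on wild-type arrays 1 to 4. On knockout arrays 1 to 4 it was 3.24, 3.46, 3.08 and 2.61, values that the software substitutes when a spot does not differ from background. Every knockout value thus lay below every wild-type value, but the knockout values are a floor and their small spread is not the spread of Cfc1 RNA. The mean level was -3.39 ± 0.53 in wild-type and -7.56 ± 0.12 in knockout, a difference of -4.18 (SE 0.24). Both this difference and its SE rest on the substituted knockout values.

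A bound that does not use the substituted values was smaller. Set against the dimmest signal that was still well above background on each knockout array, the bound on the fall of Cfc1 was 5.41-fold (n = 4 per group). That floor is the lowest signal of any spot so called, not a fixed detection limit, so the bound is approximate. The bound was 3.38-fold for wild-type 3 alone, the dimmest wild-type array, and 6.34-fold without it. Among the wild-type arrays the highest Cfc1 signal relative to the 75th percentile, on wild-type 4, was 2.41 times the lowest.

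Unsubtracted spot signals separated in the same way. The mean pixel signal of the Cfc1 spot was 91.4, 88.1, 63.0 and 109.3 on wild-type arrays 1 to 4, against 29.0, 28.4, 30.6 and 25.5 on knockout arrays 1 to 4. Negative-control spots, which match no mouse transcript, averaged 26.2 to 28.4 on the same arrays, with SDs of 2.09 to 2.81 over 291 to 302 spots. Cfc1 stood 14.3 to 39.7 of those SDs above them in wild-type and between -0.28 and 1.36 in knockout. RNA below this level in the knockout livers was not detectable on these arrays.

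**Figure D2:**
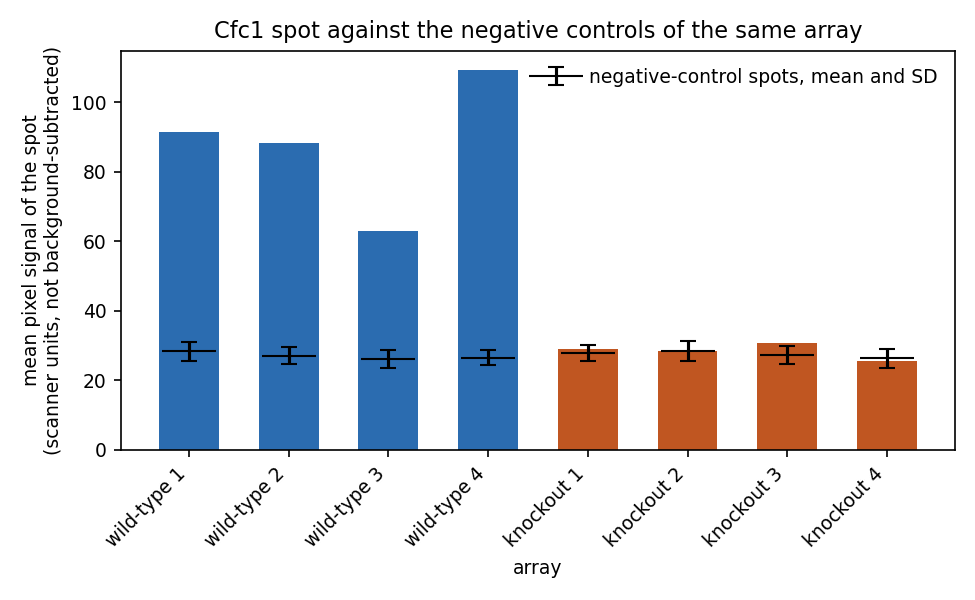
Mean pixel signal of the Cfc1 spot in scanner units (bars, y axis from 0) on each of the 8 arrays (x axis), with the mean and SD of the negative-control spots of the same array (black marks). The wild-type bars run from 63.0 to 109.3 and the knockout bars from 25.5 to 30.6, next to negative-control means of 26.2 to 28.4.

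Tdgf1, the other EGF-CFC co-receptor, gave 1 bright and 2 dim probes, all annotated to the same transcript. The bright probe had processed signals of 431, 513, 463 and 436 in wild-type and 422, 376, 544 and 535 in knockout. These groups overlapped, with the highest and lowest processed signals both in knockout. Relative to the 75th percentile the highest was wild-type 2, at a level of 0.02. The difference in level was -0.07 (SE 0.18). The dim probes ranged from 2.56 to 11.7 and were well above background on 0 of 8 arrays, although 1 of them stood 5.32, 7.08 and 5.43 SDs above the negative controls on wild-type 3, wild-type 4 and knockout 1. The level of Tdgf1 RNA therefore cannot be read from these 3 probes together.

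Nodal, the ligand, had processed signals of 91.1, 71.7, 91.1 and 86.9 on wild-type arrays 1 to 4. On knockout arrays 1 to 4 they were 107, 107, 129 and 122. Every knockout array lay above every wild-type array, and knockout 3 and 4 were the highest. The mean level was -2.70 ± 0.14 in wild-type and -2.33 ± 0.18 in knockout, a difference of 0.37 (SE 0.11), or a ratio of 1.29. The Nodal probe lies at chr10:60887790-60887849 (mm9).

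Lefty2 and Lefty1, the secreted antagonists, were read by probes on the same chromosome as Cfc1, at chr1:182828893-182828952 and chr1:182868137-182868196 (mm9). Lefty2 had processed signals of 110, 83.5, 95.7 and 92.5 in wild-type and 131, 110, 110 and 113 in knockout. Relative to the 75th percentile, the wild-type arrays lay between 16.5% and 17.9% and the knockout arrays between 18.0% and 22.6%, so that the groups did not overlap but came close at knockout 2. The difference in Lefty2 level was 0.20 (SE 0.09), a ratio of 1.15.

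Lefty1 had processed signals of 161, 105, 106 and 112 in wild-type and 132, 141, 164 and 130 in knockout. Wild-type 1 lay among the knockout arrays, so the groups overlapped. The difference in Lefty1 level was 0.16 (SE 0.10). Across 24 ways of scaling, filtering, modelling and leaving out arrays, the differences of Nodal (0.18 to 0.57), Lefty1 (0.08 to 0.39) and Lefty2 (0.10 to 0.25) were above 0 in all 24, and none of the 3 genes passed an adjusted p of 0.05 in any (limma, Benjamini-Hochberg). The upper ends for Nodal and Lefty1 came from the fit with Xist as a covariate, which goes partly with genotype. The other fits reached 0.49 and 0.24. These 24 fits share most of their arrays and are not independent of each other.

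The type I receptor Acvr1b was read by 2 probes. The brighter had processed signals of 1000, 591, 628 and 605 in wild-type and 780, 682, 847 and 641 in knockout, with wild-type 1 apart from the other wild-type arrays and the groups overlapping. Its difference in level was 0.01 (SE 0.13), and that of the dimmer probe was -0.08 (SE 0.09).

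The type II receptors bind activins as well as Nodal. Acvr2a was also read by 2 probes, the brighter at 294, 220, 239 and 239 in wild-type and 276, 298, 225 and 230 in knockout. The groups overlapped, and the difference was -0.03 (SE 0.09) by this probe and 0.04 (SE 0.13) by the dimmer one. Acvr2b had processed signals of 4259, 3191, 2956 and 2961 in wild-type and 3282, 3573, 2975 and 3018 in knockout. These groups overlapped as well, and the difference in level was -0.13 (SE 0.09). It was below 0 in all 24 fits (-0.25, with Xist as a covariate, to -0.06).

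Smad2, which carries the signal from the receptors to the nucleus, had processed signals of 415, 328, 363 and 341 in wild-type and 408, 365, 444 and 401 in knockout. Relative to the 75th percentile the wild-type arrays were tight, with levels between -0.64 and -0.56, and the knockout arrays spread on both sides of them, from -0.75 to -0.41. The difference in level was 0.08 (SE 0.09).

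Foxh1, the DNA-binding partner of Smad2, had processed signals of 29.4, 30.9, 28.4 and 32.8 in wild-type and 31.5, 41.0, 34.9 and 32.5 in knockout. The groups overlapped and the difference was 0.12 (SE 0.11). Its spots stood 10.4 to 14.8 SDs above the negative controls, the nearest to background among the kept probes of the 9 genes other than Cfc1. The signs for Tdgf1, Acvr1b, Acvr2a, Smad2 and Foxh1 each turned under at least 1 of the other fits, so no direction is given for these 5.

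**Figure D3:**
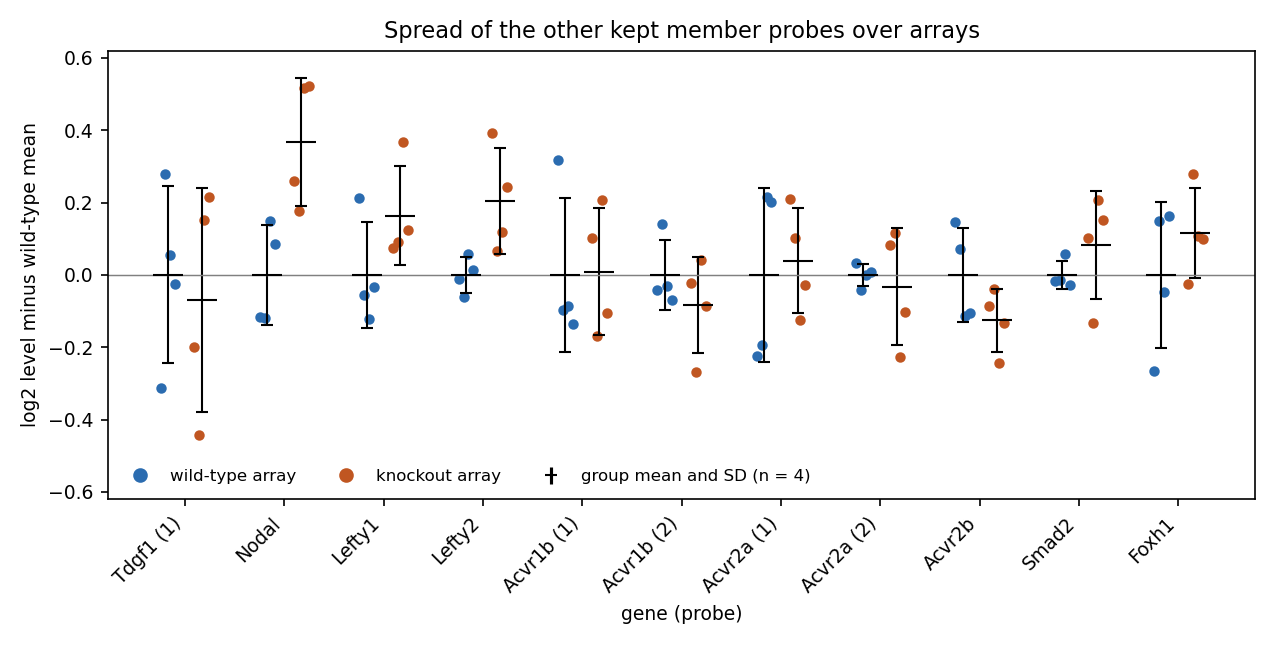
Level on each array minus the wild-type mean of the same probe (log2, y axis) for the 11 kept probes of the 9 genes other than Cfc1 (x axis), with the group mean and SD in black (n = 4). The knockout points of Nodal and Lefty2 all lie above the wild-type points, and those of the other 9 probes overlap with them.

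Counted over the 10 genes, 1 had an adjusted p under 0.05 (limma, Benjamini-Hochberg over all genes), against 0.217% of the 23526 genes tested. That gene was Cfc1, which selected the list, passed the filter through the wild-type arrays alone and had substituted values in knockout, so nothing is read from its call. For 3 of the 10 (Cfc1, Nodal and Lefty2) the groups did not overlap, against 9.13% of all genes. At an unadjusted p under 0.05 the count was also 3, against 13.4% of all genes. Among the 9 genes other than Cfc1, 0 passed the adjusted threshold and 2 the unadjusted one, 6 had a higher mean in knockout and 3 a lower one. The median difference of the 10 was 0.05, beside 0.03 over all genes, of which 56.6% had a higher mean in knockout. Cfc1 had the lowest of all 23526 differences in the fit that used its substituted values. With normexp and the 75th percentile it was at -1.05 and Cyp2e1 at -3.20. Normexp here adds an offset that compresses dim probes, so the rank of Cfc1 without substituted values is not known. Since the list was chosen around Cfc1, these counts only describe it.

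The arrays as a whole set limits on these values. Over all genes 51 passed the adjusted threshold, 42 lower and 9 higher in knockout, and the number ran from 14 (without knockout 4) to 87 (without wild-type 1) when 1 array was left out. Mirg, a noncoding RNA transcribed across the microRNA cluster, checked the labels. Its mean level was 2.17 ± 0.06 in the wild-type and -0.53 ± 0.33 in the knockout arrays (difference -2.70, SE 0.15, adjusted p = 0.000345, limma). Its probe was still well above background on 4 of 4 knockout arrays, so it showed a fall and not an absence. All 8 arrays lay on 1 slide and in 1 scan, with wild-type in 1 slide column and knockout in the other, and effects of the column and of the genotype cannot be told apart. The female transcript Xist was well above background on knockout 1, 2 and 4 and the Y-linked Ddx3y on wild-type 1, 2 and 4 and knockout 3 and 4, so knockout 4 carried both and wild-type 3 neither. With 4 arrays a group their number limits the precision, and p-values measure only the spread between these samples.

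Replicate 4 of each group was close to a weighted sum of the group's other arrays over 22472 genes, the median absolute error being 0.08 for wild-type 4 and 0.07 for knockout 4 on the log2 scale. Cfc1 departed from this in wild-type 4, where its level was -2.80 and the weighted sum gave -3.73, which is 0.93 lower. The errors are medians over the 22472 genes, not over dim probes alone. No other array was fitted in this way, so whether such closeness is unusual was not tested. Without both replicate 4 arrays the number of genes called fell from 51 to 5. The Cfc1 difference was then -3.93, the bound 4.11-fold, and the differences of Nodal, Lefty1 and Lefty2 were 0.35, 0.17 and 0.20. Cfc1 was not well above background on knockout 3, which lacked Xist signal, nor on the 3 knockout arrays that had it. Among the wild-type arrays its lowest signal was on wild-type 3, the only one without Ddx3y signal, which had no Xist signal above background either. Xist was well above background on 3 knockout and 0 wild-type arrays, so sex goes partly with genotype here. Whether sex has a part in the Cfc1 difference was not tested.

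Cell type markers moved with the groups in part. In bulk tissue, fewer cells of a type and less RNA per cell cannot be told apart. Over all genes, 0.217% were called, 9.13% had groups that did not overlap and 56.6% had a higher mean in knockout. Signals of 8 skeletal muscle genes, summed relative to the 75th percentile, were 1.09 to 3.36 in wild-type and 0.49 to 0.66 in knockout without overlap. Of these genes, 7 of 8 were lower and 1 was called (Myl1). The adjusted p of Myl1 (limma) was 0.0283 on all 8 arrays and 0.370 without both replicate 4 arrays. For 7 stellate and fibroblast genes the sums were 165 to 185 and 123 to 150, again without overlap, with 7 of 7 lower and 0 called. For 10 pancreatic acinar genes they were 23.6 to 149.9 and 14.9 to 23.8, with 8 of 10 lower, 0 called and Pnlip well above background on no array. For 6 islet genes they were 0.20 to 4.25 and 0.20 to 0.48, with 6 of 6 lower, 0 called and Pdx1 well above background on none. Both pancreas sums overlapped between the groups. Every sum adds linear signals, so its brightest genes weigh most. The brightest markers differed by -1.73 (Tnnc2) and -1.41 (Acta1) for muscle and by -0.28 (Dcn) and -0.46 (Col1a2) for stellate cells and fibroblasts, and by -1.44 (Amy2a5) and 0.32 (Cela1) for acinar and -1.39 (Ins2) and -1.98 (Ins1) for islet cells. Wild-type 3 was highest in the muscle, acinar and islet sums, and also in the cholangiocyte and B lymphocyte sums given below. It was lowest among wild-type arrays in Cfc1. The part of these cell types in the Cfc1, Nodal and Lefty2 differences was not tested.

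The other 7 marker sums overlapped as well, with 0 of their genes called, beside 0.217% of all genes. All 5 markers had a lower mean in knockout for cholangiocytes, for endothelium and for macrophages, as did 4 of 6 for hepatocytes, 1 of 4 on the array for erythroid cells, 3 of 5 for B lymphocytes and 3 of 4 for mesothelium. The hepatocyte sum, led by Alb and Serpina1a, was 3011 to 3551 in wild-type and 3220 to 3345 in knockout, and all 6 of its genes were well above background on at least 4 arrays. The sums were 6.36 to 7.47 and 5.83 to 6.92 for cholangiocytes (Spp1, Krt19), 35.3 to 47.9 and 36.8 to 40.6 for endothelium (Stab2, Lyve1), and 136 to 160 and 129 to 139 for macrophages (Csf1r, Cd5l). They were 1207 to 1769 and 1509 to 1676 for erythroid cells (Hba-a1, Slc4a1), 16.5 to 32.3 and 22.6 to 24.5 for B lymphocytes (Cd79b, Vpreb1), and 4.61 to 6.20 and 5.13 to 5.61 for mesothelium (Msln, Wt1).

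The 6 genes whose centred profile over the 8 arrays lay nearest to that of Cfc1 were, by root mean square log2 distance, Cyp2e1 (0.72), Mirg (0.82), Myl1 (0.89), Myh8 (1.01), Hsd17b6 (1.04) and Ces3b (1.08). These distances use the substituted knockout values of Cfc1. With Cfc1 set at the lowest signal well above background on each knockout array, 3 of these were still among the first 6. They were Hsd17b6 (0.43, rank 1), Ces3b (0.45, rank 2) and Mirg (0.48, rank 4). Cyp2e1, Myh8 and Myl1 then ranked 23, 38 and 41. Cyp2e1, a cytochrome P450 of hepatocytes, averaged 6.38 ± 0.61 on the wild-type and 3.16 ± 0.32 on the knockout arrays. Hsd17b6, a steroid dehydrogenase, and Ces3b, a carboxylesterase, differed by -2.20 and -2.14 log2. Myl1 and Myh8, a myosin light and a myosin heavy chain of skeletal muscle, differed by -3.27 and -2.86. The likeness measures the drop between the groups more than the order within them: Cyp2e1 and Ces3b were highest on wild-type 1, Myl1 and Myh8 on wild-type 3, and Cfc1 on wild-type 4. Myl1 and Myh8 were well above background on 3 and 2 of the 4 knockout arrays and Cfc1 on 0.

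Differences of the genes around Cfc1 on chromosome 1 are given as a description. Cfc1 had the lowest of all 23526 differences in this fit, so no neighbour could fall as far. Within 500 kb of the Cfc1 probe, 13 other genes or transcripts were tested, and 0 passed an adjusted p of 0.05 (limma), with 1 at an unadjusted p under 0.05, beside 0.217% and 13.4% of all genes. For 2 of the 13 (Ptpn18 and Amer3) the groups did not overlap, beside 9.13% of all genes. Their differences ran from -0.54 to 0.24 with a median of -0.04. The one at the unadjusted threshold was Ptpn18, a tyrosine phosphatase gene at -70.5 kb, with a difference of -0.16 (SE 0.07). The next kept probes on the other side, an unnamed transcript at 35.2 kb and Amer3 at 46.4 kb, stood at -0.07 (SE 0.20) and 0.24 (SE 0.11).

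**Figure D4:**
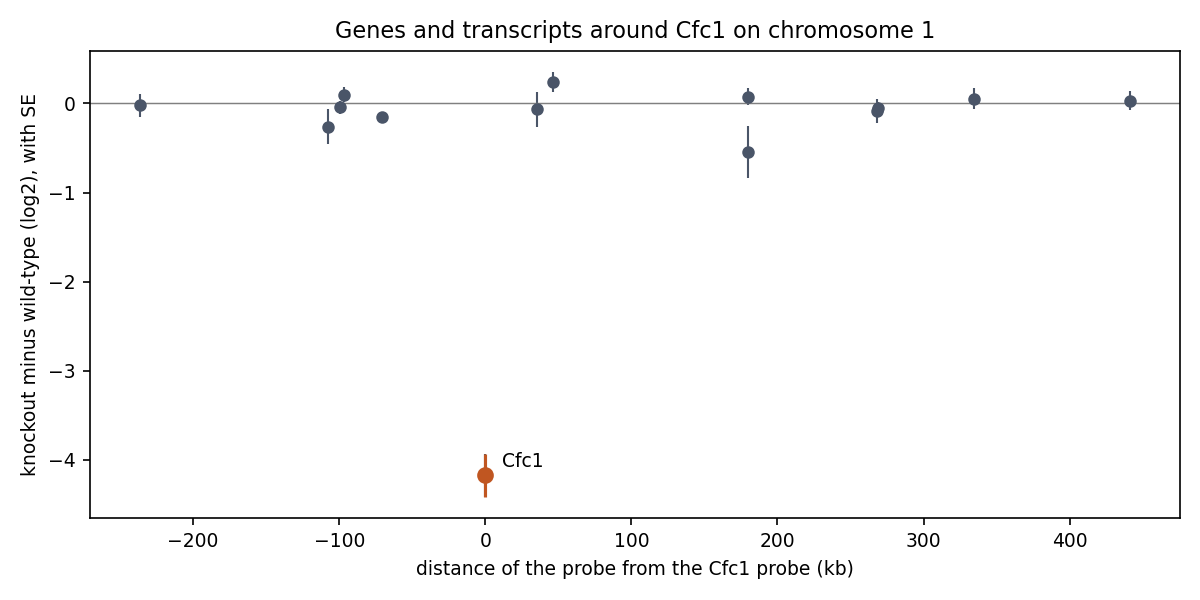
Knockout minus wild-type difference (log2, y axis) with SE for Cfc1 and the 13 other tested genes or transcripts within 500 kb, against the distance of each probe from the Cfc1 probe in kb (x axis). Cfc1 lies at -4.18 and the others between -0.54 and 0.24. The Cfc1 point and its SE rest on substituted knockout values.

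Beyond the 10 members, 66 further genes of Nodal, activin and related TGF-beta signalling were listed by role, and 57 had a kept probe. Of these 57, 0 passed an adjusted p of 0.05 (limma, Benjamini-Hochberg over all genes), and 5 had an unadjusted p under 0.05, all 5 of them lower in knockout, beside 0.217% and 13.4% of all genes. The mean was higher in knockout for 23 and lower for 34, with a median difference of -0.04 beside 0.03 over all genes. For 2 of the 57 the groups did not overlap, beside 9.13% of all genes.

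Among ligands, 3 of 10 had a higher and 7 a lower mean, and 0 had an unadjusted p under 0.05. The smallest p-values belonged to Inhbc, an activin subunit made in liver, at -0.32 with an adjusted p of 0.409, to Gdf1, the ligand that pairs with Nodal in left-right patterning, at -0.12 with 0.460, and to Tgfb2 at -0.22 with 0.486.

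All 3 proprotein convertases that cleave such ligands were tested. Pcsk5 was at -1.16 ± 0.11 in wild-type and -1.50 ± 0.19 in knockout (difference -0.35, SE 0.11). Its groups did not overlap but nearly touched, at -1.276 on wild-type 1 and -1.279 on knockout 1. Furin was at 3.02 ± 0.05 and 2.76 ± 0.18 (-0.26, SE 0.10). The adjusted p-values of Pcsk5 and Furin were 0.234 and 0.303 (limma), and Pcsk6 stood at 0.11 with 0.723.

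Among 8 further receptors and co-receptors, 3 had a higher and 5 a lower mean. Eng (endoglin, a TGF-beta co-receptor of endothelium) was at -0.22 with an adjusted p of 0.367, Bmpr2 at 0.30 with 0.400 and Acvrl1 at -0.14 with 0.584. Among 7 Smad proteins and partners 2 had a higher and 5 a lower mean, with Zfyve9, an anchor for receptor-activated Smads, at -0.19 (adjusted p = 0.476), Drap1, a corepressor that binds Foxh1, at -0.07 (0.650) and Smad3 at -0.08 (0.654). All of these are limma values.

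Among 5 extracellular inhibitors 4 had a higher mean. Fst (follistatin, which traps activins) had levels of 2.18, 2.93, 3.78 and 3.23 in wild-type and 4.06, 3.44, 3.72 and 3.62 in knockout. The groups overlapped through wild-type 3, and the difference of 0.68 (SE 0.31) had an adjusted p of 0.384 in limma. It was 1.16 without wild-type 3 and 4 and 0.40 without wild-type 1. Chrd and Nog, both antagonists of BMP ligands, stood at 0.20 and 0.30 with adjusted p-values of 0.523 and 0.558.

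Among 13 intracellular inhibitors 6 had a higher and 7 a lower mean. Pmepa1, a TGF-beta-induced protein that holds back receptor-activated Smads, had the smallest adjusted p of the 57 genes. Its levels were -1.91, -2.17, -1.58 and -1.97 in wild-type and -2.66, -2.37, -2.97 and -3.01 in knockout, without overlap. The difference was -0.85 (SE 0.17) with an adjusted p of 0.107 in limma. With Ddx3y as a covariate it was -0.95 with an adjusted p of 0.0155, over a range of 0.0155 to 0.539 in 23 alternatives. Dact2 and Smad6 stood at -0.30 and -0.31 with adjusted p-values of 0.252 and 0.449.

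Among 11 genes known as targets, 4 had a higher and 7 a lower mean, and 0 had an unadjusted p under 0.05. Id3, an inhibitor of helix-loop-helix factors, stood at -0.23 with an adjusted p of 0.552 in limma. The cell cycle inhibitors Cdkn2b and Cdkn1a stood at 0.51 and -0.09 with adjusted p-values of 0.564 and 0.582, and the sign of Cdkn1a turned when its probes were averaged.

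**Figure D5:**
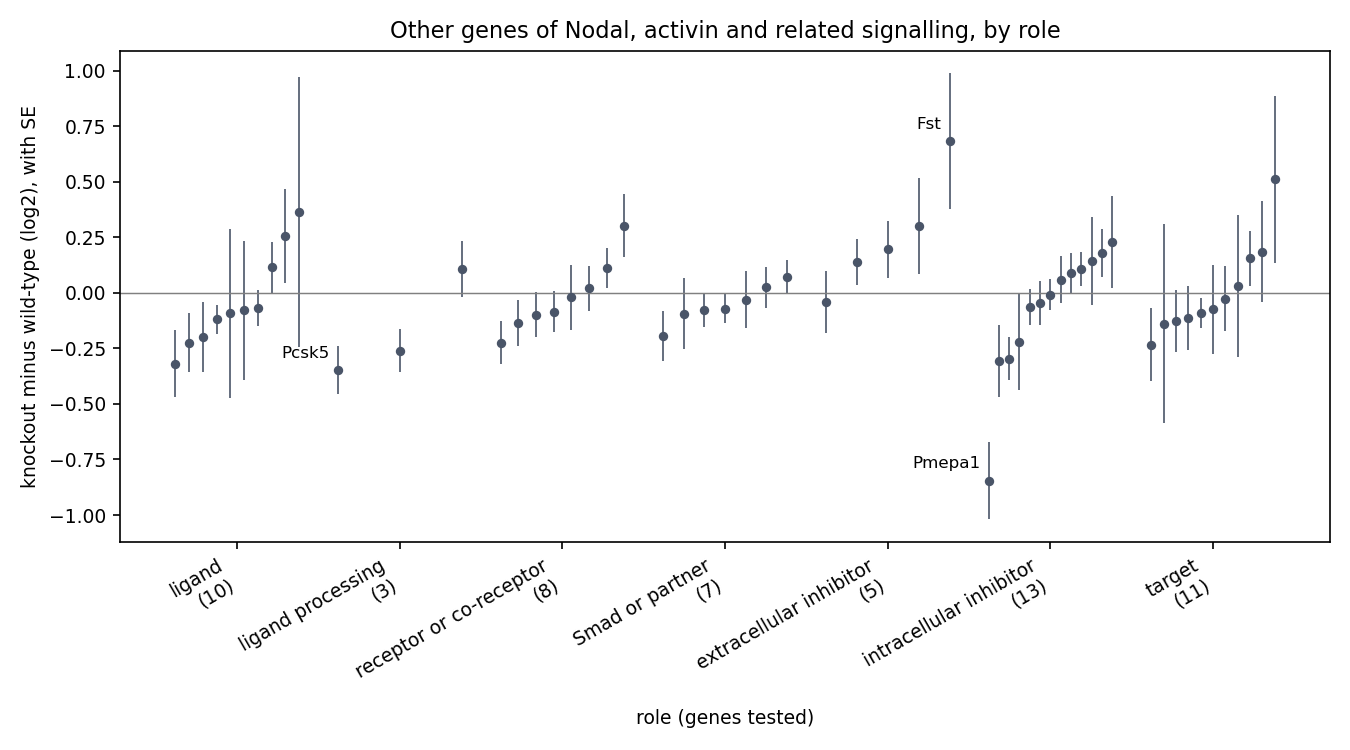
Knockout minus wild-type difference (log2, y axis) with SE for the 57 tested genes outside the 10 members, grouped by role (x axis, number tested in brackets). Pmepa1 is the lowest at -0.85 (SE 0.17) and Fst the highest at 0.68 (SE 0.31).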

How the data were processed

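The authors deposited, for each of 8 livers, spot intensity tables that the submitters' processing notes credit to Agilent Feature Extraction 10.10, and a table of log2 values for 27084 probes. The deposited log2 columns followed the unsubtracted median signal of the same array (r from 0.99995 to 0.99999), had medians of 8.84 to 8.86, and their normalization is not given in the sources used here. Coordinates are mm9, per the file headers.

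Levels were log2 processed signal minus the array's log2 75th percentile over non-control spots. Control and outlier-flagged spots were left out, spots of 1 probe averaged, and probes kept if well above background on at least 4 arrays. The kept probe with the highest mean stood for its gene. Names came from a RefSeq table (GRCm38.p6) for 27235 of 55681 probes by accession and 565 by synonym. Groups were compared with limma 3.58.1 (lmFit, eBayes, R 4.3.3) on 8 arrays with no covariate; tests were two-sided and adjusted by Benjamini-Hochberg at 0.05, after the code was tested on simulated data. In a fold bound, the knockout is set at the lowest signal well above background on each array, or the probe's own if higher.

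The members and lists were chosen with earlier results of these data known. Named were all members, the 3 pathway genes of each role with the smallest p, the 6 genes nearest in profile to Cfc1, Mirg, Xist and Ddx3y, and the 2 brightest markers of each cell type. 1 gene of the pathway list is not reported here. The 500 kb window, the 15-base runs and the profile likeness with Cfc1 at its floor were chosen after the data were examined. Alternatives were the scaling, background correction, deposited values, filter, probe rule, variance model, replicate block, Xist or Ddx3y as a covariate, and leaving out arrays.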

Additional observations from a re-analysis of the deposited data

Results flagged for a closer look

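A single array stood apart from the other 3 of its group, by the gap to its nearest neighbour relative to the group's range, in 8 of 101 groups of values checked. Chance flags about 1 in 20 groups, and replicate 4 may not be independent of the other arrays. Among the members, Lefty1 was highest on knockout 3 (-1.84, the next -2.09), Acvr1b on wild-type 1 (0.64, the next 0.23) and Smad2 on wild-type 3 (-0.56, the next -0.63).

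Among the other pathway genes, Bmpr2 was highest on wild-type 2 (-0.36), Smad3 on wild-type 3 (1.34) and Smad6 on knockout 1 (-0.81). Gdf1 was lowest on wild-type 2 (-2.26) and Nog on wild-type 1 (-3.22).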

How the results depend on the processing

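No member other than Cfc1 passed the adjusted threshold in any of 24 fits; Cfc1 is not tested. Its difference of -4.18 depends on how background is treated: it was -1.05 with normexp and the 75th percentile, -0.98 with normexp and quantile scaling and -1.41 in the deposited log2 values. Normexp here adds an offset of 50 to every signal, and the deposited values follow unsubtracted signals, so by construction both compress dim probes. Leaving out 1 array gave -4.40 to -3.98. The 51 genes called became 80 with quantile scaling, 133 with normexp and the 75th percentile, 149 with normexp and quantile scaling, 140 in the deposited values, 151 with a trended robust variance, 92 with Ddx3y as a covariate and 14 with Xist, 19 with no filter on dim probes, 73 with the array median, 60 with the filter on all arrays of a group and 49 with the mean over probes. They became 5 without both replicate 4 arrays, 13 without wild-type 3 and 4, and 12 without knockout 3 and 4. Without 1 array the number was 14 to 87: 87 without wild-type 1, 20, 20 and 19 without wild-type 2, 3 and 4, and 30, 61, 19 and 14 without knockout 1, 2, 3 and 4. The pathway list had 0 called, and 1 (Pmepa1) with Ddx3y as a covariate. Small differences turned sign for Tgfb2 (0.013), Smad3 (0.066) and Chrd (-0.12) with Xist as a covariate, and for Smad3 (0.050) and Cdkn1a (0.037) with the mean over probes; apart from construction, the causes were not tested. Same-numbered arrays of the groups shared a slide row but did not deviate together (correlations from -0.114 to 0.069). These correlations cannot show whether the samples were paired. A replicate block gave 19 genes called, with Cfc1 at -4.18. Spots within the negative-control spread or with substituted values, such as Cfc1 in knockout, give only a bound.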
